A study of Mus musculus with 40 samples.

Results

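Gene counts of 8-cell mouse embryos were compared with those of 4-cell embryos, all injected as zygotes with control siRNA, to see how the transcripts of an embryo change between the stages, both as shares of the library and in amount per embryo. The comparison takes every library labelled siCon_8C (8 embryos, collected 70 hours after hCG) and siCon_4C (7 embryos, collected 63 hours after hCG), 15 of the 40 libraries in the series, each from 1 embryo. Both groups received 20 μM of the same siControl at 17 to 18 hours after hCG and grew in KSOM at 37 °C with 5% CO2, and uninjected embryos were not analysed here. The labels give the cross as (C57BL/6J xCBA) x DBA/2J, with the number in the last name running up by 1 from library to library. The remaining libraries, from embryos with siRNA against Rif1, entered the filter on low counts, the normalisation and the estimate of the spread. Their own stage difference was used only in the comparison given last. The labels do not say which embryos shared a litter or an injection session, so p-values measure the spread between embryos of the same stage.

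Mouse development starts on RNA stored in the oocyte. Zygotic transcription then takes over while the stored RNA is degraded, and at the 8-cell stage the blastomeres compact, polarise and begin to differ in fate. RNA sequencing gives each transcript as a share of a library, and a share can fall either because the embryo holds less of the transcript or because it holds more of others. ERCC spike-in RNA, synthetic transcripts added with the lysis buffer, gives a second scale. Reads of a gene per 1000 ERCC reads follow its amount per embryo as long as each tube received the same amount of spike-in. The labels do not state that amount, and a difference in spike-in between the collections at the 2 stages and a difference in RNA per embryo cannot be told apart. Likewise, the number of blastomeres and the RNA per blastomere cannot be told apart on this scale.

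The 15 libraries held 2140880 to 4240507 mouse gene reads at the 8-cell stage and 2396168 to 3424858 at the 4-cell stage. For each read on an ERCC entry there were 32.3 to 63.8 mouse gene reads in 8-cell embryos, with a mean of 52.8 ± 10.5 (SD, n = 8), and 12.9 to 48.2 in 4-cell embryos, with a mean of 31.6 ± 14.3 (SD, n = 7). In 6 of 8 8-cell embryos the ratio was above that of every 4-cell embryo, and the geometric means differed 1.82-fold (two-sided exact permutation test of the log2 ratio, p = 0.0081, and adjusted p = 0.057 over 7 library measures). The difference thus passed the threshold of 0.05 alone and not after adjustment.

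In the 4-cell group 3 embryos stood apart. Embryos 3, 5 and 7 had ratios of 20.2, 12.9 and 18.6, against 33.6 to 48.2 in the other 4. The same 3 embryos had the highest mean levels of genes known from the 2-cell stage, at 5.01, 3.83 and 4.11 log2 CPM, against 1.62 to 2.30 in the other 4-cell embryos and 1.57 to 3.92 in 8-cell embryos. Oocyte NLRP genes were highest in embryos 3 and 7, at 4.59 and 5.32 log2 CPM, against 1.11 to 2.18 in 8-cell embryos and 2.95 to 3.53 in the remaining 4-cell embryos. Embryo 5 had the highest mean level of mitochondrially encoded genes (9.35 log2 CPM). With embryos 3 and 7 left out the log2 difference in the ratio was 0.64 (exact permutation p = 0.030), and without embryos 3, 5 and 7 it was 0.30 (exact permutation p = 0.13), against 0.86 with all embryos. For most gene lists and named genes the counts or calls that changed are therefore given without embryos 3 and 7 as well. Embryo 5 stayed in those fits, so a call kept in them does not show that it held without embryo 5. With embryo 5 alone left out, 1142 genes were higher per embryo, against 1799 with all embryos.

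**Figure D1:**
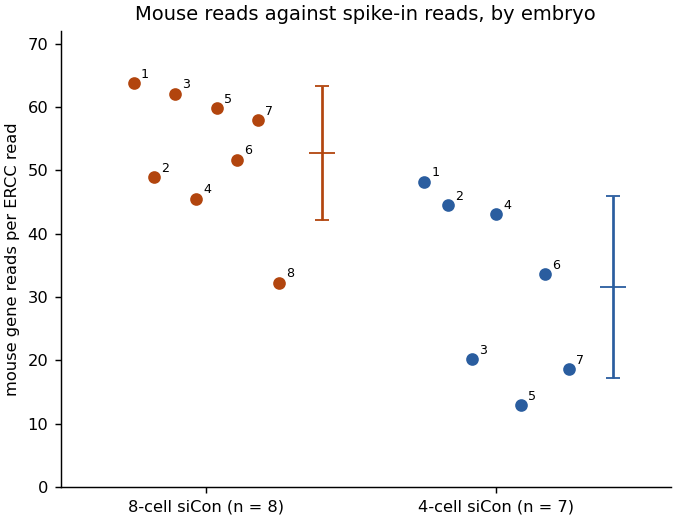
Mouse gene reads per ERCC read in each control embryo, numbered as in the labels, with the mean and SD of each stage at the right of its points. The 8-cell embryos lie between 32.3 and 63.8 and the 4-cell embryos between 12.9 and 48.2, with 4-cell embryos 3, 5 and 7 lowest.

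Of 11844 genes tested, 1628 were higher and 1926 lower in 8-cell embryos as a share of the library (edgeR quasi-likelihood test on TMM-normalised counts, adjusted p below 0.05). Those are 13.7% and 16.3% of the genes tested. With ERCC totals as library sizes, 1799 genes (15.2%) were higher and 425 (3.59%) lower per embryo. The median gene had a log2 fold change of -0.03 as a share and 0.49 per embryo, a 1.40-fold higher amount. For the middle of the distribution the move from share to amount added 0.51 to the log2 fold change, and for 5% to 95% of genes it added 0.29 to 0.86. No gene was called in opposite directions on the 2 scales.

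All 425 genes called lower per embryo were among the 1926 called lower as a share, so the decrease in amount passed the test for 22.1% of them. A wider group of 776 (40.3%) had a 95% interval of the per-embryo log2 fold change that lay below 0, and for 1150 (59.7%) that interval spanned 0. None had an interval above 0. Both fits use the same counts and differ mainly by the upward shift given above. The nesting and the lack of opposite calls were thus largely fixed in advance and are no separate support. The per-embryo estimate was below 0 for 1881 of the 1926, and within 0.25 of 0 for 259. The genes called lower on both scales had a median log2 fold change of -2.70 as a share and -2.07 per embryo. The genes called lower only as a share had medians of -1.21 and -0.67. For the genes lower only as a share, the data show a smaller share and do not settle whether the amount fell, since the median standard error per embryo was 0.47.

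**Figure D2:**
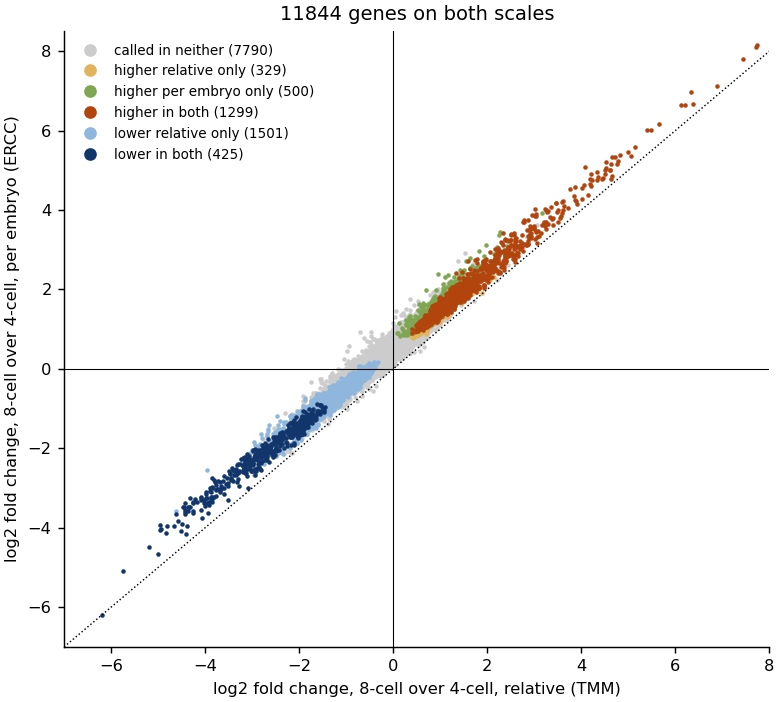
Log2 fold change, 8-cell over 4-cell, of each tested gene as a share of the library (x axis) and per embryo (y axis), coloured by the calls on each scale. The dotted line marks equal values, and nearly the whole cloud lies above it, by a median of 0.51.

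Among genes higher in 8-cell embryos the upward shift of 0.51 between the scales favours a call on both. Of the 1628 higher as a share, 1299 (79.8%) were higher per embryo too, and 500 more genes were higher per embryo with no call on share. The 1299 genes higher on both scales took 15.3% of mouse gene reads in 8-cell embryos and 9.12% in 4-cell embryos, and the 425 genes lower on both took 0.352% and 2.16%. Per 1000 ERCC reads, the lower genes summed to 182 ± 48.4 in 8-cell embryos and 607 ± 203 in 4-cell embryos (SD, n = 8 and 7), while the higher ones summed to 8101 ± 1870 and 3024 ± 1664. The 1501 genes lower only as a share summed to 2508 ± 626 in 8-cell and 3289 ± 1367 in 4-cell embryos, sums whose SDs overlap. These sums describe genes grouped by the same test and are no test of their own.

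**Figure D3:**
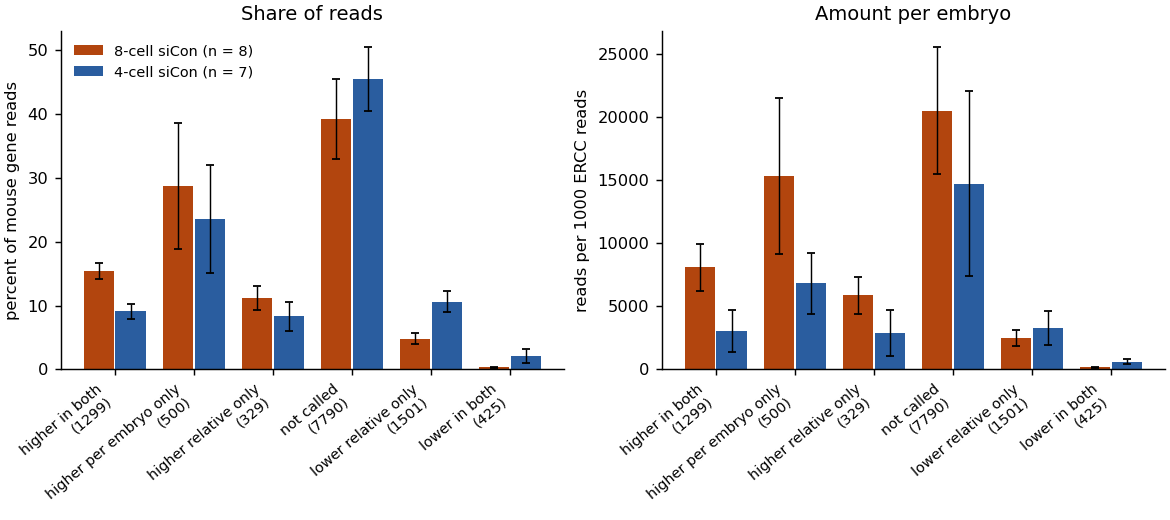
Mean and SD over embryos of the summed reads of the genes in each class of calls, as percent of mouse gene reads (left) and per 1000 ERCC reads (right), with the number of genes under each class. The genes lower on both scales go with 182 reads per 1000 ERCC reads in 8-cell and 607 in 4-cell embryos, and the genes higher on both with 8101 and 3024.

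These counts depended on the 4-cell embryos that stood apart. When embryos 3 and 7 were left out, 1250 genes were higher and 1407 lower as a share, and 774 were higher and 233 lower per embryo. Of the 425 genes lower on both scales, 209 were called lower per embryo again and 423 kept an estimate below 0. Among the 1407 genes lower as a share, 16.6% were then called lower per embryo and 49.1% had an interval below 0. Of the 1250 genes higher as a share, 623 (49.8%) were then higher per embryo too, and without embryos 3, 5 and 7 30.4% of the 1106 higher genes and 24.7% of the 1232 lower ones were called on both scales. The median gene was 1.31-fold higher per embryo without embryos 3 and 7, and 1.12-fold higher without embryos 3, 5 and 7. List counts without embryos 3 and 7 belong beside these 1250, 1407, 774 and 233 genes of 11844, not the shares of the full fit.

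The transcripts that fell in amount included several of the oocyte's own. The growth factor gene Bmp15, made by oocytes and needed for follicle growth, had 0.0923 to 0.868 (median 0.145) reads per 1000 ERCC reads in 8-cell embryos, and 0.588 to 11.7 (median 0.939) in 4-cell embryos. The adaptor gene Btg4, whose protein joins the deadenylase to translated maternal RNA, had 0.0468 to 0.852 (median 0.358) and 0.893 to 15.8 (median 1.55). The oocyte kinase gene Wee2, which holds the oocyte in meiotic arrest, had 0 to 0.144 (median 0.0763) and 0.253 to 4.74 (median 0.717). All 8 8-cell embryos lay below all 7 4-cell embryos for Btg4 and Wee2, and 7 of 8 did for Bmp15. Only 41 of 11844 genes (0.346%) were lower per embryo with groups that did not overlap. The per-embryo log2 fold changes were -3.36 for Bmp15 (SE 0.56, adjusted p = 4.5e-05), -3.39 for Btg4 (SE 0.52, adjusted p = 1.7e-05) and -4.13 for Wee2 (SE 0.68, adjusted p = 3.7e-05), all in edgeR. Without 4-cell embryos 3 and 7 they were -1.83, -1.97 and -2.85, with the calls kept, and without embryo 7 alone they were -2.18, -2.38 and -3.34.

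Zbed3, whose protein belongs to the subcortical maternal complex, a structure under the oocyte membrane needed for the first cleavages, fell the most among the abundant genes lower on both scales. It had 0.25 to 1.97 (median 0.778) reads per 1000 ERCC reads in 8-cell embryos and 1.3 to 59.3 (median 4.9) in 4-cell embryos, with 6 of 8 8-cell embryos below every 4-cell embryo. Its log2 fold change was -4.02 per embryo (SE 0.63, adjusted p = 1.9e-05 in edgeR) and -4.94 as a share, and without 4-cell embryos 3 and 7 it was -2.44 per embryo. Of the 7 members of this complex tested, 4 were lower as a share and 1 was higher, and 2 were lower and 1 higher per embryo. The background per embryo was 3.59% lower and 15.2% higher. Nlrp5, the complex's NLR protein, was the other member lower per embryo (-1.21, adjusted p = 0.034), a call that was lost without embryos 3 and 7 (adjusted p = 0.084). Padi6, a peptidylarginine deiminase of the same complex, fell as a share (-1.20, adjusted p = 0.00044), and its per-embryo value was -0.58 (adjusted p = 0.27). Khdc3 went the other way, with 1.35 to 9.02 (median 2.09) reads per 1000 ERCC reads in 8-cell and 0.0537 to 0.893 (median 0.211) in 4-cell embryos. Its groups did not overlap, and it rose by 3.47 per embryo (SE 0.54, adjusted p = 1.9e-05 in edgeR).

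Further oocyte lists had medians below 0 on both scales, with fewer calls per embryo. All 8 tested NLRP genes of the oocyte were lower as a share and 3 were lower per embryo, with medians of -2.73 and -1.95, against -0.03 and 0.49 over all genes. Those 3 were Nlrp4f (-2.83 per embryo), Nlrp9c (-2.62) and Nlrp4a (-2.10), the last of which lost its per-embryo call without embryos 3 and 7 (adjusted p = 0.11). Zona pellucida and oocyte growth factor genes had 9 of 11 members lower as a share and 5 lower per embryo. Meiosis genes and oocyte kinases had 9 of 16 lower as a share and 6 per embryo, among them Tcl1, which encodes an Akt coactivator (-3.25 per embryo, adjusted p = 0.00024). The counts lower as a share without embryos 3 and 7 were 5 NLRP, 8 zona and 7 meiosis genes, and per embryo 2, 5 and 2. NLRP genes were highest in 4-cell embryos 3 and 7, as given above, and the part of these embryos in the fold changes was not tested beyond leaving them out. Several of these genes have near-identical copies in the genome, and reads that mapped to several places were kept apart from the gene counts, so values of NLRP, Obox, Omt2, Khdc1 and Trim43 genes are uncertain.

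Some transcripts known from the early embryo fell as well, and the counts do not separate RNA stored in the oocyte from RNA made by the embryo. The homeobox family members Obox5 and Obox8 and the tripartite motif gene Trim61 fell, with per-embryo log2 fold changes of -3.10, -2.50 and -3.02. The zinc finger gene Klf17 had 1.9 to 9.44 (median 3.57) reads per 1000 ERCC reads in 8-cell embryos and 3.94 to 39.1 (median 24.5) in 4-cell embryos, and fell by 2.37 on the log2 scale per embryo (SE 0.44, adjusted p = 0.00018 in edgeR). Spin1, which encodes a reader of methylated histone H3, had 2.05 to 3.89 (median 3.11) and 3.53 to 46.4 (median 9.51), and Khdc1b had 0.859 to 4.42 (median 1.99) and 3.2 to 21.7 (median 9.21). In both, at least 6 of 8 8-cell embryos lay below every 4-cell embryo. Trim43a rose as a share (0.75, adjusted p = 0.0012) and per embryo (1.14, adjusted p = 0.047), though the per-embryo call was lost without embryos 3 and 7 (adjusted p = 0.22). Of 10 Obox and Trim genes tested, 5 fell and 3 rose as a share, and 5 fell and 1 rose per embryo. Over all genes 16.3% fell and 13.7% rose as a share, and 3.59% fell and 15.2% rose per embryo. Without embryos 3 and 7, 4 Obox and Trim genes fell and 1 rose as a share, and 3 fell and 0 rose per embryo. Of 16 tested genes of the 2-cell stage, 3 were lower as a share and 0 per embryo, and without embryos 3 and 7 none was called on either scale. With all embryos, 2 of these 3 were Pramef25 (0 to 3.12 (median 0) CPM in 8-cell and 0 to 64.3 (median 0.734) CPM in 4-cell embryos) and Zfp352 (0 to 17.8 (median 0.452) and 0 to 64.8 (median 5.87) CPM), each high in few 4-cell embryos.

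Several signalling genes fell in amount and kept their calls without embryos 3 and 7. Fgf4, the ligand that directs inner cells towards primitive endoderm, had 0.946 to 18.2 (median 5.5) CPM in 8-cell embryos and 33.8 to 246 (median 143) CPM in 4-cell embryos, with no overlap between the groups. Per 1000 ERCC reads it had 0.0468 to 0.738 (median 0.327) and 0.399 to 7.85 (median 6.3), with 4 of 8 8-cell embryos below all 4-cell embryos. Its log2 fold change per embryo was -3.95 (SE 0.62, adjusted p = 1.9e-05 in edgeR), and -4.00 without embryos 3 and 7. The FGF receptor gene Fgfr4 (-2.07, adjusted p = 0.0047), the feedback inhibitor gene Spry4 (-2.34, adjusted p = 0.00028) and the protein kinase C gene Prkcd (-2.16, adjusted p = 0.00078) fell per embryo as well. In the same list Pdgfa, the ligand of the receptor that marks primitive endoderm, rose by 4.21 (adjusted p = 1.9e-05). Spry2, another feedback inhibitor, rose by 2.11 (adjusted p = 0.0022), and Id3, a helix-loop-helix inhibitor and common BMP target, rose by 4.90 (adjusted p = 1.9e-05). Of 27 signalling genes tested 6 rose and 6 fell as a share, and 7 rose and 3 fell per embryo. As a share that is 22.2% each way, against 13.7% and 16.3% over all genes. Per embryo it is 25.9% and 11.1%, against 15.2% and 3.59%. Without embryos 3 and 7 the counts were 3 and 3 as a share, and 4 and 3 per embryo.

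A further set had a lower share with a per-embryo estimate close to 0. By the naming rule the most abundant of them were mt-Co1, a subunit of cytochrome c oxidase encoded in mitochondrial DNA, the autophagy gene Rb1cc1, the cyclin gene Ccne1 and the histone H3K4 demethylase gene Kdm5b. Kdm5b had 260.5 to 379 (median 326) CPM in 8-cell and 314 to 549 (median 418) CPM in 4-cell embryos, which gave -0.41 on the log2 scale (adjusted p = 0.018, SE 0.14 in edgeR). Per 1000 ERCC reads it had 11.3 to 20.8 (median 15) and 4.94 to 29.1 (median 15), a log2 fold change of 0.02 with a 95% interval of -0.73 to 0.78. The 8-cell embryos lay within the range of the 4-cell embryos on the per-embryo scale. Ccne1 gave -0.50 as a share and 0.11 per embryo (interval -0.63 to 0.84), and Rb1cc1 gave -0.42 and 0.08 (interval -0.67 to 0.83). These intervals are wide on both sides of 0, so a change per embryo was not detectable at this spread, which does not show that there was none. The share calls of this set were near the threshold, and those of Ccne1 and mt-Co1 were lost without embryos 3 and 7 (adjusted p = 0.093 and 0.36).

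Several gene lists had members lower as a share and few called lower per embryo, though some of these members had per-embryo estimates well below 0. Of 45 genes of double-strand break repair and its checkpoint 15 were lower and 1 higher as a share, and 2 were lower and 2 higher per embryo, with medians of -0.44 and 0.01. Over all genes 16.3% were lower as a share and 3.59% per embryo. Trp53bp1, which directs break repair to end joining, was 1 of those 2, with -1.52 per embryo (adjusted p = 0.013). Of 52 mitosis and cyclin genes 15 were lower and 2 higher as a share, and 1 was lower and 2 higher per embryo (medians -0.27 and 0.19), and the kinetochore gene Spc25 gave -1.35 as a share and -0.84 per embryo (adjusted p = 5.8e-06 and 0.093). Of the mitosis genes lower as a share 4 had a per-embryo interval below 0, and of the break repair genes 2 did. Of 24 cohesin and condensin genes 8 were lower as a share and 0 per embryo, with 1 interval below 0 per embryo. The cohesin acetyltransferase gene Esco1 gave -1.45 and -0.89, and the condensin gene Ncapd2 -1.20 and -0.68. For all 3 of the genes Spc25, Esco1 and Ncapd2 every 8-cell embryo was below every 4-cell embryo in CPM, while no 8-cell embryo was below all 4-cell embryos on the per-embryo scale. Groups lower as a share without overlap occurred in 2.54% of genes tested. Leaving out embryos 3 and 7 gave 12 break repair, 11 mitosis and 6 cohesin or condensin genes lower as a share, and 2, 1 and 0 lower per embryo.

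Endoplasmic reticulum chaperone genes, which fold secreted proteins, had 8 of 22 members lower as a share, and 1 lower and 1 higher per embryo. That is 36.4% lower as a share, against 16.3% over all genes. Per embryo it is 4.55% each way, against 3.59% lower and 15.2% higher over all genes. Hspa5, the central chaperone of that compartment, had 72.8 to 201 (median 115) CPM in 8-cell and 175 to 597 (median 326) CPM in 4-cell embryos, and gave -1.66 as a share (adjusted p = 2.0e-06) and -1.10 per embryo (adjusted p = 0.076). In the list of glucose uptake and glycolysis 8 of 26 genes were lower and 3 higher as a share, and 2 were lower and 3 higher per embryo. As a share that is 30.8% and 11.5%, against 16.3% and 13.7% over all genes. Per embryo it is 7.69% and 11.5%, against 3.59% and 15.2%, so the rises were below the background on both scales. Gapdh (-1.54 as a share, -0.90 per embryo) and Pkm (-1.31 and -0.77) were lower only as a share. Hexokinase Hk2, which traps glucose in the cell, and the enolase gene Eno2 rose on both scales, by 3.71 and 3.48 per embryo (adjusted p = 0.00012 and 0.0019). Leaving out embryos 3 and 7 gave 4 chaperone and 6 glycolysis genes lower as a share, and 0 and 1 lower per embryo.

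Many genes of ribosomes and of oxidative phosphorylation rose. Of 85 cytosolic ribosomal protein genes 77 rose as a share and 1 fell, and 54 rose and 0 fell per embryo, against a background of 13.7% and 15.2% of genes that rose. The list medians were 0.79 as a share and 1.17 per embryo, against -0.03 and 0.49 over all genes. Rpl38, a protein of the large ribosomal subunit, had 333 to 502 (median 440.1) CPM in 8-cell and 119 to 277 (median 209) CPM in 4-cell embryos. Per 1000 ERCC reads it had 16.5 to 24.2 (median 20.7) and 3.03 to 14.7 (median 7.91). All 8-cell embryos lay above all 4-cell embryos on both scales, and the log2 fold changes were 1.04 (SE 0.17, adjusted p = 8.4e-06) and 1.46 (SE 0.35, adjusted p = 0.0031) in edgeR. The single member that fell as a share was Rpl3l, a paralogue typical of muscle, with 0 to 3.54 (median 1.2) CPM in 8-cell and 0.534 to 11.6 (median 4.88) CPM in 4-cell embryos. That call was lost without 4-cell embryos 3 and 7 (adjusted p = 0.057). Without these embryos, 66 of the 85 rose and 0 fell as a share (median 0.58) but only 5 per embryo (median 0.86). Most per-embryo calls thus rested on those embryos while the direction did not. Over all 11844 genes 1250 rose as a share and 774 per embryo in that fit, with medians of 0.02 and 0.38. The 5 per-embryo calls were therefore near the background. Without embryos 3, 5 and 7, 47 rose as a share (median 0.52) and 0 per embryo (median 0.62).

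Mitochondrial ribosomal proteins, which serve translation inside the organelle, followed with 36 of 77 genes higher and 1 lower as a share, and 29 higher and 0 lower per embryo. Mrpl52 of this list had 1.15 to 3.42 (median 2.2) reads per 1000 ERCC reads in 8-cell and 0.215 to 0.759 (median 0.565) in 4-cell embryos, without overlap, and rose by 2.31 per embryo (SE 0.38, adjusted p = 3.7e-05 in edgeR). Mrpl41 was the member lower as a share (-0.76, adjusted p = 0.0036), with -0.36 per embryo (adjusted p = 0.54). Of 75 nuclear genes of oxidative phosphorylation 49 rose and 0 fell as a share, and 44 rose per embryo, with medians of 0.63 and 1.09. Ndufb8, a subunit of complex I, had 0.763 to 1.83 (median 1.05) reads per 1000 ERCC reads in 8-cell and 0.054 to 0.486 (median 0.208) in 4-cell embryos and rose by 2.09 (SE 0.43, adjusted p = 0.00069 in edgeR). The 13 genes encoded in mitochondrial DNA did not share this pattern, with 0 higher and 1 lower as a share and 2 higher per embryo, and medians of -0.20 and 0.48. That difference between the lists was not tested. With embryos 3 and 7 left out, 24 mitochondrial ribosomal and 41 oxidative phosphorylation genes rose as a share, and 12 and 9 per embryo. With embryos 3, 5 and 7 left out the counts were 20 and 29 as a share, and 3 and 2 per embryo.

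Proteasome, splicing and translation factor genes moved in the same direction as a share. Of 32 proteasome genes 17 rose as a share and 4 per embryo. Of 53 spliceosome, SR and hnRNP genes 24 rose and 2 fell as a share and 17 rose per embryo. Of 45 translation factor genes 19 rose as a share and 7 per embryo. The shares that rose were 53.1%, 45.3% and 42.2% as a share, against 13.7% over all genes. Per embryo they were 12.5%, 32.1% and 15.6%, against 15.2%, so proteasome and translation factor genes were near the background there. Srsf9, a splicing factor of the SR family, had 88.1 to 204 (median 146) CPM in 8-cell and 20.4 to 80 (median 41.7) CPM in 4-cell embryos and rose by 1.67 as a share and 2.23 per embryo (adjusted p = 8.1e-06 and 3.6e-05). Psma7, a subunit of the proteasome core, rose by 0.87 and 1.27 (adjusted p = 4.9e-05 and 0.023), and the translation factor gene Eif5a by 0.82 and 1.18 (adjusted p = 2.6e-05 and 0.032). The per-embryo calls of Psma7 and Eif5a were lost without embryos 3 and 7 (adjusted p = 0.14 and 0.18). The cytosolic chaperone gene Hsp90aa1 rose by 1.33 as a share and 1.76 per embryo, with all 8-cell embryos above all 4-cell embryos on both scales. After embryos 3 and 7 were left out, 9 proteasome, 17 splicing and 10 translation factor genes rose as a share, and 0, 5 and 2 per embryo. After embryos 3, 5 and 7 were left out the counts were 5, 11 and 7 as a share, and 0, 3 and 1 per embryo.

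The promoters of 4 of these genes are printed because 3 of them belong to lists that rose together and the fourth, Omt2a, to the oocyte genes that fell. Each line gives 300 bases from 250 before to 50 after the annotated start (RefSeq, GRCm38.p6), 5′ to 3′ on the gene's strand, in lower case. Capitals mark the letters CTTCCGG, found in sites of ETS family factors, and AAGATGGC, found in sites of YY1, each on either strand.
Rpl38 (chr11:114668330-114668629, plus strand): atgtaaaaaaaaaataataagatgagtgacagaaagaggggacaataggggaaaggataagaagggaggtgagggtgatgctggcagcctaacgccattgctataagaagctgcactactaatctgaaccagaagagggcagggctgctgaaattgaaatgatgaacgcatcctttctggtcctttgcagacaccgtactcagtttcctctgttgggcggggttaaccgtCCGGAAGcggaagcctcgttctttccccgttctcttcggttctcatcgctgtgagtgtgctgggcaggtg
Mrpl52 (chr14:54426659-54426958, plus strand): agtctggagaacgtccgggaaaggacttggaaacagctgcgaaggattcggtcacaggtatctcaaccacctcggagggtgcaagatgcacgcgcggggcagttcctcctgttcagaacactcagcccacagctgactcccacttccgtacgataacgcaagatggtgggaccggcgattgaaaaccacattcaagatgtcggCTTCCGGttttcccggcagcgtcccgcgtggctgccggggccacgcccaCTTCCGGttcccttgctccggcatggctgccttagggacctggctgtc
Ndufb8 (chr19:44555393-44555692, minus strand): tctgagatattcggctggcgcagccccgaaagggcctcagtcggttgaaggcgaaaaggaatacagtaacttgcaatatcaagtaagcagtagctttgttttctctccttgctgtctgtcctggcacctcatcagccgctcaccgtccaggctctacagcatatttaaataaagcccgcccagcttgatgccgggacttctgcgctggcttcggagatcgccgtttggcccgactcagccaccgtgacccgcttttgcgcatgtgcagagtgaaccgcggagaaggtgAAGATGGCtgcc
Omt2a (chr9:78313999-78314298, minus strand): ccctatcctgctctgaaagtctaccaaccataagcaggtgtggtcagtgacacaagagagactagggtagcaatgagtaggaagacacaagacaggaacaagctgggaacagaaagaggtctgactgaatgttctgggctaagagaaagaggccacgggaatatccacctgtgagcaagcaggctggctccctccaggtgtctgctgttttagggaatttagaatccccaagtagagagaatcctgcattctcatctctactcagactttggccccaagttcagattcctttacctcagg
The window of Rpl38 held the ETS letters at position -20 and that of Mrpl52 at positions -47 and 3, counted from the start, and the window of Ndufb8 held the YY1 letters at position 39. Neither was found in the window of Omt2a. CTTCCGG was in 9.93% of 27025 genes' windows, in 21.8% of the 8577 tested genes with a window, and in 40.6% of 64 cytosolic ribosomal, 36.8% of 68 mitochondrial ribosomal, 25.8% of 62 oxidative phosphorylation, 40% of 25 proteasome and 36.7% of 49 splicing genes. Lists with few genes that rose held it about as often, with 38.5% of 39 DNA replication, 34.7% of 49 nucleolar, 31.2% of 16 polymerase II and III and 29.4% of 34 break repair genes. It was in 10.1% of the 328 genes lower on both scales and 23.2% of the 850 higher on both. AAGATGGC was in 3.19% of all windows, 5.83% of tested genes, 9.38% of cytosolic ribosomal, 17.6% of mitochondrial ribosomal and 14.5% of oxidative phosphorylation genes, but in 2.04% of splicing genes. It was in 2.44% of genes lower and 5.53% of genes higher on both scales. In all, 130 windows held both, which overlapped in 1. These are counts of letters and not of bound sites. Omt2a itself had 0.358 to 1.39 (median 0.876) reads per 1000 ERCC reads in 8-cell and 1.42 to 6.62 (median 3.69) in 4-cell embryos, without overlap, and fell by 2.19 on the log2 scale per embryo (SE 0.34, adjusted p = 1.9e-05 in edgeR).

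**Figure D4:**
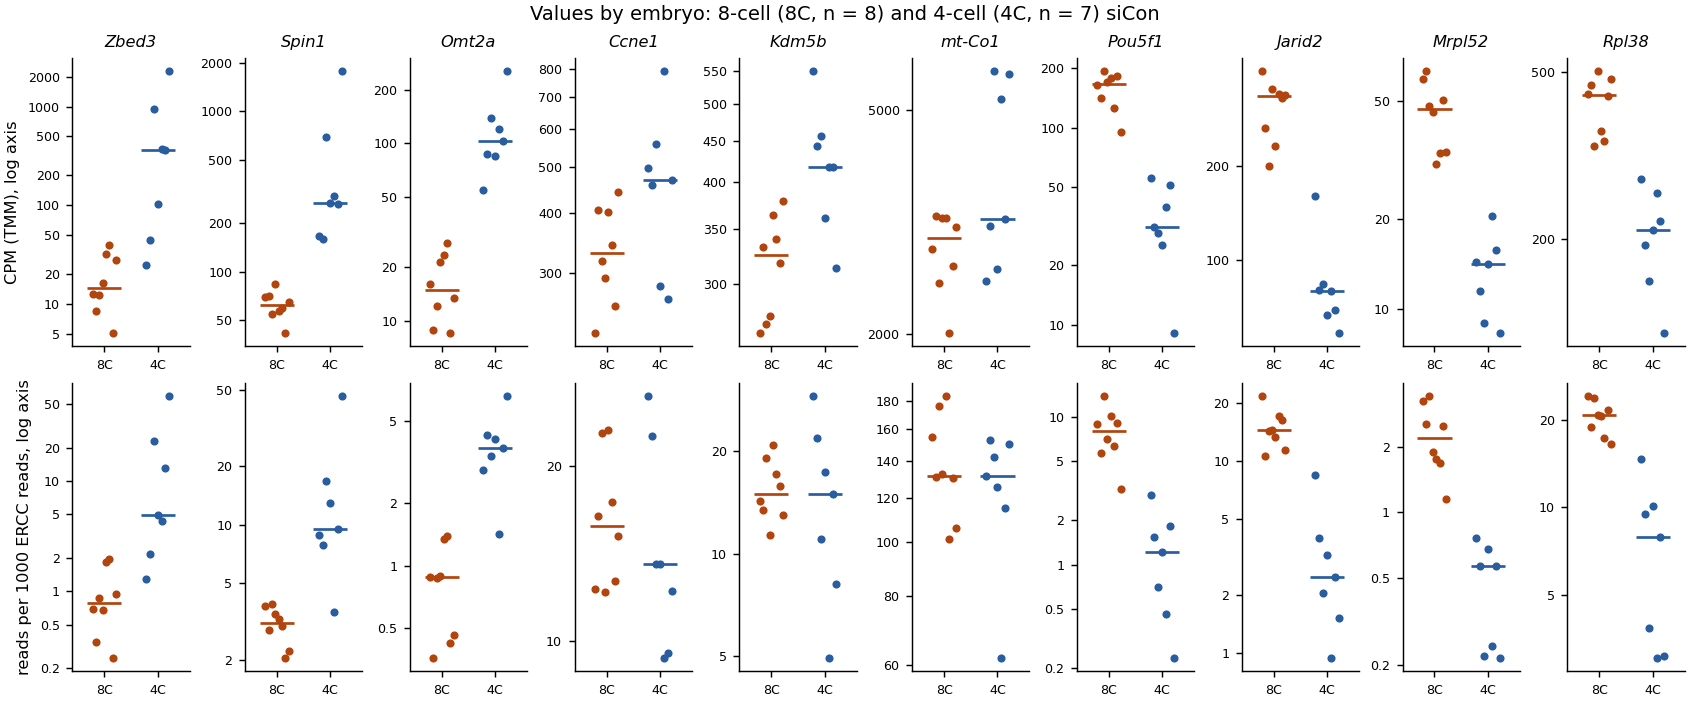
Values of 10 genes in each embryo on a log axis, as CPM (top) and as reads per 1000 ERCC reads (bottom), 8-cell left of 4-cell, with the median as a line. Zbed3, Spin1 and Omt2a are low in 8-cell embryos on both scales, Ccne1, Kdm5b and mt-Co1 overlap between stages per embryo, and Pou5f1, Jarid2, Mrpl52 and Rpl38 are above every 4-cell embryo on both scales.

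Among transcription factors of the early lineages some rose and others fell. Pou5f1 (Oct4), a core pluripotency factor, had 95.2 to 193 (median 167) CPM in 8-cell and 9.04 to 55.8 (median 31.2) CPM in 4-cell embryos, without overlap. It rose by 2.19 as a share and 2.66 per embryo (SE 0.27 and 0.46, adjusted p = 9.9e-08 and 6.8e-05 in edgeR). Tfcp2l1, a factor of naive pluripotency, rose by 4.58 per embryo (adjusted p = 2.1e-06) and Zfp42 (Rex1) by 1.67 (adjusted p = 0.0038). Of 25 pluripotency genes 7 rose and 4 fell as a share, and 10 rose and 1 fell per embryo. As a share that is 28% and 16%, against 13.7% and 16.3% over all genes. Per embryo it is 40% and 4%, against 15.2% and 3.59%, so only the rises were above the background. Without embryos 3 and 7 the counts were 6 and 2 as a share, and 6 and 1 per embryo. Without embryos 3, 5 and 7 they were 7 and 3 as a share, and 4 and 1 per embryo. Groups higher without overlap occurred in 3.22% of genes tested as a share and 3.71% per embryo.

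Single genes of both extraembryonic lineages rose. Gata6, a factor of primitive endoderm, had 233 to 564 (median 307) CPM in 8-cell and 5.34 to 206 (median 69.4) CPM in 4-cell embryos and rose by 2.86 per embryo (SE 0.48, adjusted p = 4.9e-05 in edgeR). The endocytic adaptor gene Dab2 (2.34, adjusted p = 0.0066) and the basement membrane collagen gene Col4a1 (2.98, adjusted p = 0.01) rose as well, though Col4a1 lost its per-embryo call without embryos 3 and 7 (adjusted p = 0.057). Gata4, the partner of Gata6, fell as a share (-1.35, adjusted p = 0.001), with -1.15 per embryo (adjusted p = 0.091) and -1.56 without embryos 3 and 7 (adjusted p = 0.037). Of 13 primitive endoderm genes 4 rose and 1 fell as a share, and 4 rose and 0 fell per embryo. In the trophectoderm list 3 of 23 genes rose and 4 fell as a share, and 4 rose and 0 fell per embryo, which are 13.0% and 17.4% higher, near the 13.7% and 15.2% over all genes. With embryos 3 and 7 left out, 3 primitive endoderm genes rose and 1 fell as a share, 2 rose and 1 fell per embryo, and 3 trophectoderm genes rose per embryo. With embryo 5 left out as well, 1 primitive endoderm gene rose and 1 fell per embryo, and 3 trophectoderm genes rose and 1 fell.

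Cdx2, which specifies trophectoderm, had no read in any of the 7 4-cell embryos and 161 reads over 7 of the 8 8-cell embryos. Against a floor of 3 reads over the 4-cell group it was at least 42.3-fold higher as a share and at least 83.3-fold higher per ERCC read. The level was still low, with 0 to 24.2 (median 3.15) CPM in 8-cell embryos. Klf5, an activator shared by trophectoderm and pluripotent cells, had 424 to 1057 (median 574) CPM in 8-cell and 74.7 to 345 (median 199) CPM in 4-cell embryos and rose by 2.14 per embryo (adjusted p = 0.00031). Amot, a junction protein that regulates Hippo signalling, rose by 3.36 (adjusted p = 1.9e-05). Hand1, a factor of later trophoblast, fell as a share (-1.26, adjusted p = 0.024) with -1.01 per embryo (adjusted p = 0.16).

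Genes for the junctions on which compaction depends were mixed. Of 35 such genes 9 rose and 7 fell as a share, and 10 rose and 1 fell per embryo. As a share that is 25.7% and 20%, against 13.7% and 16.3% over all genes. Per embryo it is 28.6% and 2.86%, against 15.2% and 3.59%, so the falls were near the background. Without embryos 3 and 7 the counts were 8 and 4 as a share, and 6 and 1 per embryo. Without embryos 3, 5 and 7 they were 8 and 3 as a share, and 4 and 2 per embryo. Cdh1 (E-cadherin), the adhesion molecule of compaction, had 68.5 to 164 (median 131) CPM in 8-cell and 36.8 to 81.1 (median 55.3) CPM in 4-cell embryos and rose by 1.11 as a share and 1.59 per embryo (adjusted p = 4.4e-05 and 0.0085 in edgeR). The tight junction gene Cldn4 (2.48, adjusted p = 0.015) and the desmosome gene Perp (3.97, adjusted p = 0.00052) rose per embryo, and the per-embryo calls of Cdh1 and Cldn4 were lost without embryos 3 and 7 (adjusted p = 0.056 and 0.073). Epcam, another adhesion molecule, and the polarity gene Pard3 fell as a share, by 1.43 and 1.03 on the log2 scale, with -0.98 and -0.40 per embryo (adjusted p = 0.13 and 0.42). For cavitation, which comes later, the water channel gene Aqp3 was higher as a share (1.81, adjusted p = 0.017) and the sodium pump subunit gene Atp1b1 lower (-1.41, adjusted p = 0.0038), and both calls were lost without embryos 3 and 7 (adjusted p = 0.069 and 0.12).

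Other large increases by the naming rule were in Tmem64, a membrane protein gene (3.49 per embryo), the actin-binding gene Lasp1 (3.23), the RNA-binding gene Rbm14 (2.93) and the chromatin protein gene Hmga2 (2.91). All 8-cell embryos had more reads of each per 1000 ERCC reads than any 4-cell embryo. With all embryos in the fit, some genes passed only per embryo. Yy1, a zinc finger factor with many targets, had 75.9 to 179 (median 132) CPM in 8-cell and 30 to 224 (median 59) CPM in 4-cell embryos, ranges that overlap, and 4.54 to 9.06 (median 5.65) and 0.779 to 3.26 (median 2.9) reads per 1000 ERCC reads, which do not. Its log2 fold change was 0.71 as a share (adjusted p = 0.15) and 1.42 per embryo (adjusted p = 0.0015). The cold-shock protein gene Ybx3 (1.22 and 1.89), the pluripotency factor gene Klf4 (1.26 and 1.84), the transcriptional repressor gene Spen (0.72 and 1.47) and Hnrnpa0, which encodes an RNA-binding protein (0.92 and 1.48), were of the same kind. When 4-cell embryo 5 was left out all 5 were called as a share too, with Yy1 at 1.20 and Spen at 1.31.

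Chromatin genes moved in both directions within a family. Tet2 and Tet3, which oxidise methylated cytosine, moved oppositely. Tet2 had 0.341 to 6.7 (median 1.69) reads per 1000 ERCC reads in 8-cell and 0.0918 to 0.603 (median 0.287) in 4-cell embryos, and Tet3, the form stored in the oocyte, had 0.0989 to 0.523 (median 0.287) and 0.565 to 1.07 (median 0.836). Per embryo Tet2 rose by 3.04 (adjusted p = 2.8e-05) and Tet3 fell by 1.40 (adjusted p = 0.016), and for Tet3 the groups did not overlap. Smchd1, a silencing protein known from the inactive X chromosome, fell by 1.73 (adjusted p = 0.0039), and Zfp57, which protects imprints, by 1.49 (adjusted p = 0.032), a call lost without embryos 3 and 7 (adjusted p = 0.073). Uhrf1, the partner of the maintenance methyltransferase, was lower as a share (-1.59), with -1.02 per embryo (adjusted p = 0.1).

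Among polycomb genes Jarid2, a cofactor of the H3K27 methyltransferase, had 10.7 to 21.9 (median 14.4) reads per 1000 ERCC reads in 8-cell and 0.945 to 8.46 (median 2.49) in 4-cell embryos, without overlap, and rose by 2.21 (SE 0.43, adjusted p = 0.0003 in edgeR). Bmi1, of the other polycomb complex, fell by 1.11 (adjusted p = 0.015), and the call was lost without embryos 3 and 7 (adjusted p = 0.098). Of 36 polycomb and trithorax genes 9 rose and 7 fell as a share, and 8 rose and 1 fell per embryo. As a share that is 25% and 19.4%, against 13.7% and 16.3% over all genes. Per embryo it is 22.2% and 2.78%, against 15.2% and 3.59%. In the histone list H2afy, which encodes macroH2A, rose by 3.33 per embryo (adjusted p = 0.00023). The pair of genes for histone H3.3 differed, since H3f3a was higher as a share (0.42, adjusted p = 0.016) and H3f3b lower (-1.08, adjusted p = 4.2e-05), with 0.82 and -0.75 per embryo and no call on that scale. The call of H3f3a was lost without embryos 3 and 7 (adjusted p = 0.13). H1foo, the oocyte linker histone, was lower as a share (-2.69, adjusted p = 0.002), with 0 to 5.08 (median 1.96) CPM in 8-cell and 0 to 51.4 (median 5.42) CPM in 4-cell embryos, and lost the call without embryos 3 and 7 (adjusted p = 0.087). The other 6 tested members of that list were called on neither scale. Rif1, the target of the siRNA used elsewhere in the series, gave -0.45 as a share and 0.06 per embryo (adjusted p = 0.21 and 0.94) in these control embryos. For the polycomb and trithorax list without embryos 3 and 7, 7 rose and 6 fell as a share, and 4 rose and 0 fell per embryo.

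Of the called genes of the p53 pathway most fell, and those of RNA decay moved both ways. Of 32 p53 pathway and apoptosis genes 12 fell and 2 rose as a share, and 5 fell and 2 rose per embryo. As a share that is 37.5% and 6.25%, against 16.3% and 13.7% over all genes. Per embryo it is 15.6% and 6.25%, against 3.59% and 15.2%, so the rises were below the background on both scales. The stress gene Sesn2 (-1.44 per embryo, adjusted p = 0.01) and the p53 inhibitor gene Mdm4 (-1.24, adjusted p = 0.0086) were among those that fell. Of 27 genes of maternal RNA storage and decay 3 fell and 2 rose as a share, and 2 fell and 4 rose per embryo. As a share that is 11.1% and 7.41%, below the 16.3% and 13.7% over all genes. Per embryo it is 7.41% and 14.8%, against 3.59% and 15.2%. The medians of this list, 0.01 and 0.47, were close to the -0.03 and 0.49 of all genes. The decapping enzyme gene Dcp2 fell by 1.22 per embryo (adjusted p = 0.011, and 0.098 without embryos 3 and 7). Genes of the deadenylase complex differed, with Cnot11 higher (1.86 per embryo, adjusted p = 0.0017) and Cnot8 lower as a share (-0.65, adjusted p = 0.00092) but not per embryo (-0.25). Leaving out embryos 3 and 7, the p53 list had 9 lower and 2 higher as a share, and 5 lower and 1 higher per embryo, and the RNA decay list had 1 lower and 1 higher per embryo.

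**Figure D5:**
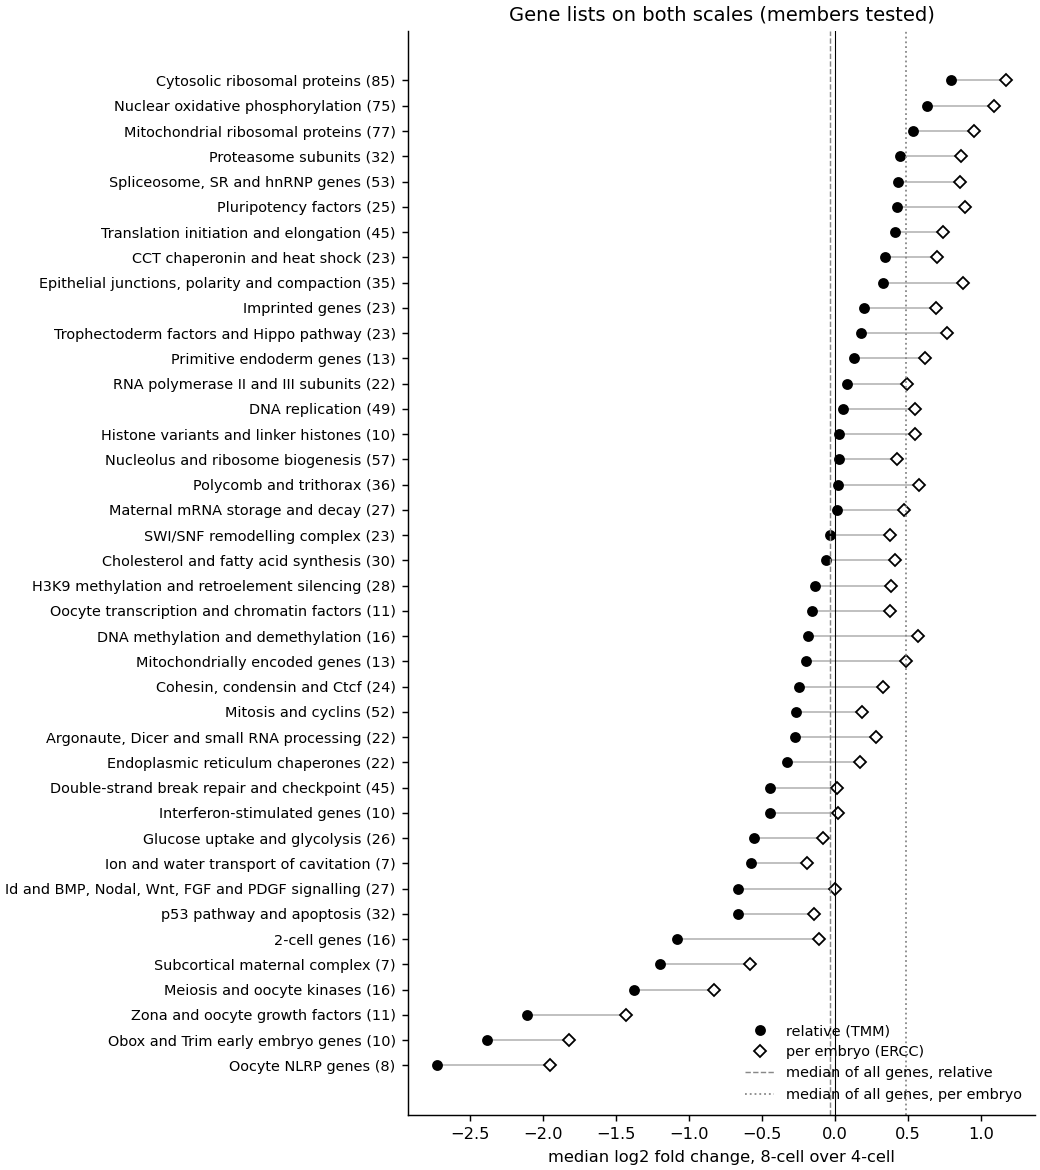
Median log2 fold change, 8-cell over 4-cell, of the tested members of each gene list, as a share of the library (filled) and per embryo (open), with the medians of all tested genes as vertical lines. Ribosomal and oxidative phosphorylation lists lie right of both lines and the oocyte lists left of 0 on both scales, except that oocyte transcription and chromatin factors lie at -0.16 as a share and 0.38 per embryo, while break repair lies at -0.44 as a share and 0.01 per embryo.

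Markers of cells that could accompany an embryo were low. The 20 cumulus and granulosa markers summed to 45.0 to 98.9 CPM in 8-cell and 49.3 to 118 CPM in 4-cell embryos, with 11 having any read. Amhr2 held most of them, while Amh, Cyp19a1, Fshr, Lhcgr, Inha, Has2 and Ptx3 had 0 reads in all 15 embryos. The 12 sperm and testis markers summed to 0.285 to 7.56 CPM in 8-cell and 4.57 to 13.1 CPM in 4-cell embryos, nearly all of them from Ldhc, and the protamine-associated genes Tnp1 and Tnp2 had 0 reads. The part of either list in the results was not tested. The counts do not use strand, so reads of Rbm14, Hmga2, Gata6, Dab2, Col4a1, Pou5f1, Pdgfa, Tet2, H2afy, H3f3a, Trp53bp1, Gapdh, Rb1cc1, Spen, Atp1b1 and mt-Co1 cannot be told from those of genes that overlap them on the other strand.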

How the data were processed

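RNA of single mouse embryos was sequenced with SMART-seq2, per the labels' protocols, without strand or molecular identifiers. Per the submitters' processing notes, the authors used STAR 2.7.6a with GRCm38, and the files hold its unnormalised read counts as deposited. Of 55487 mouse entries GENCODE M21 named 55227, and the 4 summary entries stayed out of all totals. The unstranded column was used, since the stranded ones split the reads 49.7% to 51.2%.

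Counts were tested in edgeR 4.0.16 (R 4.3.3) with 1 coefficient per group over all 40 libraries, once with TMM factors (share) and once with totals of the 92 ERCC entries as library sizes (per embryo). The filter filterByExpr (minimum count 10) left 11844 genes. Adjusted p is Benjamini-Hochberg over all of them, and each SE is the fold change over the root of F. The mean log2 levels of lists add a prior count of 2. The fit was tested on simulated counts. Floors of 3 reads cover counting error only. Replicate numbers did not pair embryos (correlations of -0.11 to 0.07 over 7 shared numbers), and no libraries were duplicates (lowest chi-square per degree of freedom 7.14).

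The comparison, 42 gene lists and the naming rule were chosen with earlier results of these data known. The rule took 8 genes per class of calls (average level 5 or more in log2 CPM), up to 3 members each way per list by p, Rif1 and the histone genes. Alternatives were DESeq2 1.42.0, limma-voom 3.58.1, RLE factors, other ERCC factors, no filter, control libraries alone, the replicate number as a block, and embryos left out.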

Additional observations from a re-analysis of the deposited data

Results flagged for a closer look

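Of 238 groups of values checked, 15 held an embryo whose gap to the nearest other was large for the group's range, and chance gives about 1 in 20 such groups. In the 8-cell group, Bmp15 was high in embryo 6 (17.2 CPM, against 2.09 to 5.31 CPM in the others), Pramef25 was high in embryo 5 (3.12 CPM) and Psma7 was high in embryo 3 (815 CPM, against 529 to 648 CPM). Embryo 7 of that group was low for Trim61 (1.58 CPM, against 5.94 to 14.0 CPM) and Epcam (17.3 CPM, against 51.9 to 105 CPM).

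In the 4-cell group, embryo 7 was low for Obox8 (124 CPM, against 375 to 841 CPM) and Klf17 (152 CPM, against 499 to 952 CPM). The same embryo was high for Dcp2 (186 CPM, against 38.2 to 67.5 CPM), Mdm4 (921 CPM, against 221 to 398 CPM) and Mvd (14.5 CPM, against 0.733 to 2.94 CPM). Embryo 5 was low for Fgf4 (33.8 CPM, against 110.1 to 246 CPM) and high for Spen (109.6 CPM, against 16.5 to 35.8 CPM). Its 50 most abundant genes held 47.8% of reads, against 25.8% to 32.2% in the others. Jarid2 was high in embryo 1 (159.6 CPM, against 58.6 to 84.2 CPM), and Phlda2 had 0 CPM in embryo 3, against 23.1 to 228 CPM.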

How the results depend on the processing

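The counts of calls moved most with the 4-cell embryos that stood apart. With 4-cell embryos 3 and 7 left out, 1007 genes were called per embryo (774 higher, 233 lower), and all 233 were lower as a share too. With embryos 3, 5 and 7 left out, an alternative chosen after seeing the data, 2338 genes were called as a share (1232 lower) and 647 per embryo (343 higher), and the log2 difference in mouse gene reads per ERCC read was 0.30 (exact permutation p = 0.13). That alternative also turned Pramef25 to 0.29 and Zfp352 to 0.53 as a share, neither of them called. The cause was not tested. When 1 embryo at a time was left out, 1142 to 2272 genes were higher per embryo, lowest without 4-cell embryo 5, and 319 to 487 were lower.

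RLE factors, DESeq2, limma-voom, other ERCC factors, no filter, the control libraries alone and mitochondrial genes left out each gave counts within 1.5 times of those reported. With the replicate number as a block, 3144 genes were called as a share and 2443 per embryo, and 330 were lower on both scales, and 1 of 7 numbers correlated best with its own. Named genes were checked only with RLE factors or another set of ERCC factors, the control libraries alone, the replicate block and embryos left out. Among 2220 such alternative values of named genes per embryo, 83 lost and 24 gained a call. No called per-embryo value changed sign. Uncalled per-embryo values near 0 did, among them Kdm5b (-0.13 to 0.26 when 1 embryo was left out), Rb1cc1 (-0.04 to 0.42) and Rif1 (-0.08 to 0.32). Among 2220 alternative values as a share, 86 lost and 13 gained a call. The 2 called genes that changed sign as a share were Pramef25 and Zfp352, as given above. Depth, spike-in amount and 7 and 8 embryos limit the per-embryo scale.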

Other observations

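Over all genes 13.7% were higher and 16.3% lower as a share, and 15.2% and 3.59% per embryo, the background for the counts that follow. Of 49 DNA replication genes 4 rose and 4 fell as a share, and 5 rose and 0 fell per embryo. Tyms, which makes thymidylate, rose on both scales (1.44 as a share and 1.84 per embryo), whereas the origin-firing kinase genes Dbf4 (-0.90 and -0.45) and Cdc7 (-1.05 and -0.60) were lower only as a share. Of 57 nucleolar genes 8 rose and 3 fell as a share, and 6 rose per embryo, among them the methyltransferase gene Fbl (1.07, adjusted p = 0.026, and 0.16 without 4-cell embryos 3 and 7). Without those embryos 2 nucleolar genes rose and 5 fell as a share and 0 rose per embryo. Polr1e, of RNA polymerase I, was lower as a share (-0.88) with -0.44 per embryo. Of 22 polymerase II and III genes 3 rose and 4 fell as a share and 1 rose per embryo, Polr2i rising by 1.54 and Polr3a giving -1.21 as a share and -0.70 per embryo.

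Of 22 small RNA genes 3 rose and 5 fell as a share and 4 rose per embryo, with Ago2, which slices RNA, at 1.47 and Lin28b, a let-7 regulator, at 1.69 per embryo. Of 28 genes of H3K9 methylation and retroelement silencing 3 rose and 6 fell as a share, and 4 rose and 1 fell per embryo. The corepressor gene Trim28 rose by 1.25 per embryo (adjusted p = 0.007, and 0.07 without embryos 3 and 7), and the methyltransferase gene Ehmt1 gave -0.70 as a share and -0.15 per embryo. Of 16 DNA methylation genes 2 rose and 5 fell as a share, and 4 rose and 3 fell per embryo, and without embryos 3 and 7 the counts per embryo were 1 and 1. In the SWI/SNF list 0 of 23 rose and 2 fell as a share, and 1 rose and 1 fell per embryo. Its ATPase gene Smarca2 gave -2.17 per embryo (adjusted p = 0.0034), and -1.17 without embryos 3 and 7 (adjusted p = 0.15), when 0 of the list were called per embryo.

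Of 30 cholesterol and fatty acid genes 3 rose and 3 fell as a share and 1 rose per embryo, with Mvd at 1.97 per embryo and Sqle at -1.16 as a share and -0.67 per embryo. Of 23 chaperonin and heat shock genes 7 rose as a share and 4 per embryo. Of 11 oocyte transcription and chromatin factor genes 1 rose and 4 fell as a share, and 2 rose and 1 fell per embryo, with the histone chaperone gene Npm2 at -1.43 and -0.87. Without embryos 3 and 7, 1 of these rose and 3 fell as a share and 0 were called per embryo. Of 23 imprinted genes 3 fell as a share and 1 rose per embryo, Usp29 giving -1.87 and -1.26, and Phlda2 -1.77 and -1.17. Of 10 interferon-stimulated genes 1 fell as a share and 0 were called per embryo. Of 7 genes of ion and water transport 1 rose and 3 fell as a share and 0 were called per embryo. The stage difference as a share was also set against that in embryos with siRNA against Rif1. In edgeR 0 genes differed between the 2 stage effects (adjusted p below 0.05), with 733 at an unadjusted p below 0.05. At that threshold chance alone would pass a fraction of 0.05 of the 11844 genes tested. The same comparison per embryo is not reported here.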
